A study of Homo sapiens with 11 samples.

Results

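RNA recovered with V5-tagged RPS19 carrying the substitution R101H was compared with RNA recovered with V5-tagged RPS19 carrying R62W, both found in Diamond-Blackfan anemia. The comparison used the list of enriched genomic windows and the table of enriched repeat elements deposited for each substitution, matched on position and strand or on repeat name. Of 122708 windows in any list of the series, 120024 were in the R101H list, the R62W list or both, and of 326 repeat elements 317 were. The R101H list held 93331 windows and 252 elements, and the R62W list held 86567 windows and 230 elements.

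All samples were HEK293T, an immortal line from human embryonic kidney that carries SV40 large T antigen. There were 2 R101H immunoprecipitates (IP) and 3 R62W IPs, each from crosslinked cells that overexpressed the V5-tagged substitution from a transfected plasmid, and 3 size-matched inputs from crosslinked cells without a plasmid and without antibody. The series also holds 3 IPs of overexpressed V5-tagged wild-type RPS19 (WT), used here only to say which windows and genes its list holds. The promoter of the plasmid is not given, and the labels describe no removal of the cells' own RPS19, so tagged and untagged protein may be present together. The labels do not say whether replicates came from separate cultures, so a p-value reflects only the spread among these samples, which may be technical.

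RPS19 is a protein of the small (40S) ribosomal subunit that is needed to mature the 18S ribosomal RNA, and loss of its function lowers the supply of small subunits. Diamond-Blackfan anemia is a failure of red cell production caused mainly by variants in ribosomal protein genes, RPS19 among them. Enhanced crosslinking and immunoprecipitation (eCLIP) joins protein to RNA with ultraviolet light, fragments the RNA and sequences what comes down with the protein, so a tagged ribosomal protein can bring down RNA of whole ribosomes and of ribosome precursors as well as RNA it contacts directly.

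The value of a window is the authors' log2 odds ratio of IP over input for each replicate, called enrichment here. Each table gives the lowest, mean and highest over replicates, which fix every replicate value but not which replicate it is. A window had a median length of 93 bases and a longest length of 100. Every listed window had a highest q under 0.2. A window entered the R101H list only when it passed in 2 of 2 replicates and entered the R62W list when it passed in at least 2 of 3, so the lists were not made by equal rules. A window that a list leaves out has no value there, which is not a measured 0. Library totals are not given in the tables. Windows in both lists had a median pooled count of 60 IP and 13 input reads in R101H and of 59 and 15 in R62W, while windows of R101H only had 31 and 8 and windows of R62W only had 30 and 7.

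HEK293T markers were few in the lists, with 3 of 7 in R101H and 2 of 7 in R62W. Among them, VIM had 4 windows in R101H and 3 in R62W, and NEFL had 2 and 3. None of 10 erythroid genes had a window in either list. A gene without a window is not shown to be unexpressed, so the cell type rests on the sample labels. By those labels the values describe an embryonic kidney line and not a red cell precursor.

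The lists shared 59874 windows, which was 64.2% of the R101H list and 69.2% of the R62W list. Of all windows in either list, 49.9% were in both, 27.9% (33457) in R101H only and 22.2% (26693) in R62W only. These groups come from the lists themselves and carry no test. The balance depends on the listing rule. R101H held 55.6% of the single-list windows as deposited, 82.5% at a highest q of at most 0.05 (26071 against 5539), 93.4% when every replicate had to pass (59022 against 4193) and 50.6% with at least 10 input reads (16333 against 15917). Shares of single-list windows are therefore read only beside the 55.6% of all windows, or 44.4% for R62W. Windows of a single list lay nearer the limit of listing. A highest q between 0.15 and 0.2 was found in 30.3% of R101H-only and 42.7% of R62W-only windows, against 8.97% and 21.8% of shared windows. Of the R62W-only windows 15.7% had passed in all 3 replicates, against 57.3% of shared windows. Single-list windows usually lay in transcripts that the other list held too, with 95.9% of R101H-only and 97.5% of R62W-only windows in a gene of the other list, and 34.0% and 37.1% directly beside a window of it. The WT list held 17.7% of the shared windows, 1.36% of the R101H-only windows and 6.13% of the R62W-only windows.

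Replicate values could be compared in the 34309 windows that passed in every replicate of both substitutions. No window passed limma's test with Benjamini-Hochberg adjustment at 0.05 (0% of 34309, lowest adjusted p = 0.584), with 817 windows higher in R101H (2.38%) and 35 higher in R62W (0.102%) at an unadjusted p under 0.05. The median window was 0.30 higher in R101H on the log2 scale. The R101H values lay wholly above the R62W values in 6572 windows (19.2%) and wholly below them in 355 (1.03%). After subtracting that median difference, the same counts were 1856 (5.41%) and 2077 (6.05%). The summed input counts of these windows were 0.671 times as high in R101H as in R62W, but they are sums over 2 R101H and 3 R62W replicates. Among shared windows with at least 50 input reads, the median input ratio was 1.05 where 2 R62W replicates passed and 0.673 where 3 passed. The labels do not say which inputs each list used. The part of the input in the offset of 0.30 was not tested. A second measure, the pooled IP ratio, is the log2 of R101H over R62W pooled IP counts (each plus 0.5), centred so that the median of the 34309 windows is 0. It ran from -0.49 to 0.43 between the 5th and 95th percentiles and has no replicate spread.

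Among annotated regions, exons of small RNAs had the highest share of windows with R62W wholly above R101H, at 14 of 45 (31.1%), beside 1.03% of all windows. The U3 small nucleolar RNA, which base-pairs with the ribosomal RNA precursor and guides the early cuts that release 18S, had higher values with R62W in most of its windows. Genes annotated as U3 (SNORD3A, SNORD3B-1, SNORD3B-2, SNORD3C, SNORD3D, SNORD3E and an unnamed copy, U3) had 16 windows in both lists, none in R101H only and 10 in R62W only. All 16 shared windows passed in every replicate. Their median pooled IP ratio was -1.84 and their median enrichment difference -1.50, beside 0.00 and 0.30 over all windows. R62W lay wholly above R101H in 10 of the 16 (62.5%) before and after centring, against 1.03% and 6.05% of all windows, and R101H lay above in none. Several of these genes are near-identical copies, all on chromosome 17 except SNORD3E on chromosome X, so reads may be assigned among them arbitrarily and the windows are not independent.

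In SNORD3A (GRCh38, plus strand), the window at chromosome 17, 19188315 to 19188414, had enrichments of 1.31 and 1.43 in R101H and of 2.88, 3.35 and 4.02 in R62W. Its pooled counts were 70 IP and 22 input reads in R101H against 304 and 25 in R62W. Every R62W replicate of that window lay above both R101H replicates, and the difference was -2.05 ± 0.42 (SE, 2 and 3 replicates), with a limma adjusted p of 0.94. Farther along the same annotated gene, at 19188515 to 19188614, the values were 1.80 and 2.49 against 2.90, 3.37 and 4.87. At 19188615 to 19188714 they were 3.60 and 3.69 against 4.34, 4.58 and 5.71, again without overlap. Windows of SNORD3B-1, SNORD3B-2 and SNORD3C had the same order. SNORD3B-1 (plus strand) had 2.12 and 2.17 in R101H against 3.66, 3.88 and 4.06 in R62W at 19062291 to 19062384, a difference of -1.72 ± 0.32 (SE).

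SNORD3B-2 (minus strand) had 1.33 and 1.38 against 2.63, 2.67 and 3.07 at 19063840 to 19063938, where 96 IP reads were pooled in R101H and 400 in R62W. SNORD3C (minus strand) had 2.41 and 2.51 against 3.28, 4.47 and 4.87 at 19189858 to 19189954. SNORD3E and the copy named U3 had overlapping values. So did the window of SNORD3D, recorded within the transcript RP11-160E2.6. Its mean was higher in R101H, with 1.43 and 1.78 against 1.14, 1.25 and 1.65 in R62W and a pooled IP ratio of 0.05. The whole transcript RP11-160E2.6 went the other way, with 4 windows passed in every replicate and a median pooled IP ratio of -1.67. R62W lay wholly above in 2 of these 4 and R101H in 0. The U3 windows with the most reads were listed in R62W only, at low enrichment. The first listed window of SNORD3A (19188115 to 19188214) held 28585 IP and 19461 input reads in R62W, with values of 0.34, 0.41 and 0.48. SNORD3B-2 (19063939 to 19064037) held 19154 and 12853, with 0.36, 0.44 and 0.49, and SNORD3C (19190149 to 19190245) held 18044 and 13883, with 0.52, 0.79 and 1.10. R101H has no listed value for any of these, so the U3 windows richest in reads could not be compared between the substitutions.

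**Figure D1:**
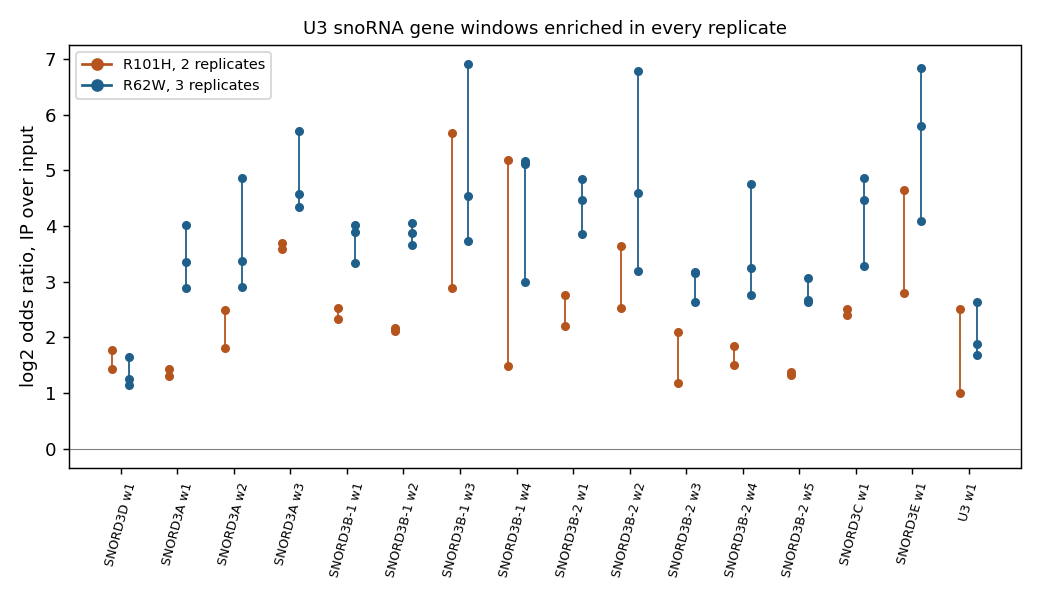
Enrichment (log2 odds ratio of IP over input, vertical axis) of the 16 windows in genes annotated as U3 that passed in every replicate, for 2 R101H and 3 R62W replicates (points). R62W points sit wholly above R101H points in 10 of the 16 windows, and in none do R101H points sit wholly above.

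U8, encoded by SNORD118 and needed to mature the large subunit's 5.8S and 28S ribosomal RNAs, had values in the same order. Its window at chromosome 17, 8173454 to 8173520 (minus strand), had 0.97 and 1.30 in R101H (2012 IP and 1002 input reads) and 1.67, 1.87 and 1.88 in R62W (4557 and 1572). The R62W values lay wholly above, with a difference of -0.67 ± 0.32 (SE) and a limma adjusted p of 0.94. The adjoining window at 8173521 to 8173587, which held more reads, had 0.53 and 0.89 against 0.80, 1.01 and 1.18, and there the groups overlapped.

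Small nucleolar and Cajal body RNAs apart from U3 had 7 windows in both lists, 4 in R101H only and 14 in R62W only. Most of the modification guides among them lie in introns of host genes. The R62W-only windows included SNORD90 in RC3H2 (2.44, 3.76 and 3.78), SNORD82 in the nucleolin gene NCL (0.98, 1.35 and 1.59) and SNORD14B in RPS13 (0.66, 0.80 and 1.57). The R101H-only windows were SNORA12 in CWF19L1 (0.47 and 0.57), SNORA79 in GTF2A1 (0.70 and 0.72), SCARNA12 in PHB2 (0.41 and 0.46) and SNORD91A in TSR1 (1.67 and 2.78). SCARNA5 in ATG16L1 was the exception among shared windows in which R101H lay above, with 0.73 and 0.90 against 0.67, 0.69 and 0.73.

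Spliceosomal RNAs were also listed more with R62W. U1 genes had 1 window in both, 1 in R101H only and 6 in R62W only, U2 genes had 9, 0 and 5, and genes of U4, U5, U6 and the minor spliceosome had 10, 0 and 15. In the abundant U2 and U6 genes the values overlapped. RNU2-1 had 0.45 and 0.56 in R101H (19844 IP reads) against 0.37 and 0.72 in the R62W replicates that passed (16624). RNU2-2P, with 23306 and 19014 IP reads, had 0.52 and 0.53 against 0.39 and 0.64. The RNU6-7 window with most reads had 1.59 and 2.12 (3668 IP reads) against 1.37, 1.87 and 1.88 (4570), and the U6 repeat element had 1.67 and 2.33 against 1.66, 2.04 and 2.19. Most listed genes are pseudogene copies, and reads from the abundant genes can be assigned to them. Pooled IP ratios of the windows passed in every replicate, mainly such copies, had medians of -0.64 over 6 U2 windows and -0.88 over 9 windows of U4, U5, U6 and minor genes. RNU6ATAC2P, a copy of the minor spliceosome's U6atac, had 0.76 and 1.23 in R101H against 1.84, 1.90 and 1.92 in R62W at chromosome 5, 56297564 to 56297626. RNU6ATAC itself was in R62W only, with 0.61, 0.66 and 0.66 from 7333 IP and 4196 input reads. RNU2-4P overlapped between the groups at 3.81 and 4.51 against 3.71, 4.70 and 4.82.

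Further RNA polymerase III transcripts, or copies of them, were listed with R62W only. They were 7 windows of pseudogenes of 7SK, the RNA that holds back the elongation kinase P-TEFb, 5 of pseudogenes of 7SL, the RNA of the signal recognition particle, and 4 windows of Y and vault RNAs. No 7SK or 7SL gene other than such copies had a window in either list. VTRNA1-2 had 0.86, 1.30 and 1.67 from 6138 IP and 2346 input reads, and VTRNA1-1 had 0.38, 0.42 and 0.92 from 3088 and 1883. TERC, the telomerase RNA made by RNA polymerase II, was listed in R62W only as well, at 0.49 and 0.55 in the replicates that passed. RNA of the mitochondrial transfer RNA for histidine, MT-TH, was high in both and overlapped, at 3.03 and 4.01 in R101H against 3.42, 3.91 and 4.56 in R62W. Over all windows annotated as exons of small RNAs, 50 were in both, 8 in R101H only and 71 in R62W only. R101H therefore held 10.1% of the single-list windows (exact 95% interval 4.47 to 19.0, counting error only), beside 55.6% for all windows.

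MicroRNA precursors are cut from longer transcripts, and a mature microRNA pairs with targets through its seed, bases 2 to 8. Of 2545 mature microRNAs in RefSeq (GRCh38.p14), 64 overlapped a listed window in either list, over 50 windows. Of these windows 27 were in both lists, 7 in R101H only and 16 in R62W only, where the shares of all windows were 49.9%, 27.9% and 22.2%. Many lie in introns or exons of host genes, so a window does not show that a microRNA was recovered. The following mature sequences, with the seed in capitals, were picked after their values were seen. They belong to clustered microRNAs in windows of both lists or of R62W only, grouped by shared seed.
miR-16-5p: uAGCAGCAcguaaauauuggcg
miR-15a-5p: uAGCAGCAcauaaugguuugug
miR-20a-5p: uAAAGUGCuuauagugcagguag
miR-106b-5p: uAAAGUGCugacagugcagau
miR-19a-3p: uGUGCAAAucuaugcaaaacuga
miR-19b-3p: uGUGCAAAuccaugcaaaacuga
miR-221-3p: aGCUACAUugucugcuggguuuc
miR-222-3p: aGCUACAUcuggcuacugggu

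In each of the first 3 seed groups, a member was in both lists and another was in R62W only. The miR-16-5p precursor in DLEU2 (chromosome 13, 50048973 to 50049061) had 3.02 and 4.84 in R101H against 4.68, 5.62 and 6.34 in R62W, from 86 and 180 IP reads and 4 input reads each. A second copy of miR-16-5p beside MIR15B in SMC4, with 11 of 22 bases in its window, had 1.46 and 4.42 against 2.33, 5.27 and 6.02. Both windows overlapped between the groups, at pooled IP ratios of -0.91 and -0.88. The neighbouring miR-15a-5p was in R62W only, with 3.39 and 4.89 in the replicates that passed.

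In the MIR17HG cluster, the window of miR-20a-5p had 1.62 and 3.51 against 2.48, 3.44 and 4.04 and overlapped. The window of miR-19a-3p had 1.11 and 1.85 against 0.89, 0.98 and 1.53 and overlapped too. It holds only the last 9 of the 23 bases of miR-19a-3p, so the seed lies outside it. The windows of miR-19b-3p (2.19, 3.04 and 3.30) and, in MCM7, of miR-106b-5p (1.48 and 2.53 in the replicates that passed) were in R62W only. With miR-222-3p the pair was 2.79 and 6.92 against 3.48, 3.74 and 6.72. Its seed partner miR-221-3p was in both lists too, with the higher mean in R101H, at 2.01 and 3.02 against 1.98 and 2.29 in the R62W replicates that passed. The replicate values of these pairs overlapped in every window measured in all replicates, and input counts of 9 or fewer in all but the miR-19a-3p window leave them imprecise.

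The R101H-only windows held other microRNAs. The next sequences are shown because they are the R101H counterpart and share no seed with those above.
miR-4292: cCCCUGGGccggccuugg
miR-4442: gCCGGACAagagggagg
miR-4784: uGAGGAGAugcugggacuga
The window of miR-4442 in TOP2B had 0.78 and 0.95 from 161 IP and 43 input reads. That of miR-4292 in RABL6 had 2.50 and 4.26 from 27 and 1, and that of miR-4784 in MZT2A had 1.32 and 4.47 from 36 and 4. The MIR6724-1 precursor on chromosome 21 had 5 windows in R62W only, and its shared window at 8205584 had 2.28 and 2.76 in R101H against 2.94, 3.02 and 3.20 in R62W. All of its windows were also in the WT list.

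Transfer RNAs, the adaptors that carry amino acids to the ribosome, were the repeat elements most often lower with R101H. Unlike windows, elements carry values from all replicates of a list. Of all 317 elements 52.1% (165) were in both tables, 27.4% (87) in R101H only and 20.5% (65) in R62W only. Of 51 transfer RNA families, 35 were in both, 0 in R101H only and 16 in R62W only. Families of Ala, Glu, Ile, Cys and Pro were all in R62W only, and the other 15 isotypes had a family in both. The mean enrichment was lower in R101H for 32 of the 35 shared families, at a median difference of -0.49 beside 0.16 over all 165 shared elements. Subtracting that 0.16 gave -0.65, with 33 of 35 lower, and R62W then lay wholly above R101H in 3 of 35 families (8.57%), beside 5.45% of all shared elements.

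The replicate values of most families overlapped. Over the 35, the R101H replicates had medians of 1.62 and 2.72 (lower and higher replicate), and the R62W replicates 2.10, 2.49 and 3.34. The lower R101H replicate was below the lowest R62W replicate in 28 of 35 families and the higher below the highest in 30. Over all 165 shared elements these counts were 45 and 64. Both R101H replicates lay below the middle R62W replicate in only 4 of the 35 families, beside 17 of all 165 elements. No element passed limma's test after adjustment (0% of 165, lowest adjusted p = 0.743), with 6 higher in R101H (3.64%) and 1 higher in R62W (0.606%) at an unadjusted p under 0.05. That 1 was tRNA-Lys-AAA, at 1.45 and 1.99 in R101H (8046 IP and 1564 input reads) against 2.45, 2.56 and 3.57 in R62W (20402 and 2179). Its difference was -1.14 ± 0.41 (SE), with a limma adjusted p of 0.743.

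The initiator tRNA-Met-i had 1.15 and 2.16 against 1.83, 1.97 and 2.65, and tRNA-Asp-GAY, with the most reads of any shared family, had 1.95 and 2.86 against 2.06, 2.50 and 3.38. Both overlapped. The 3 families higher in R101H were tRNA-Met_ (1.05 and 1.89 against 0.37, 0.94 and 1.70), tRNA-Met and tRNA-Leu-TTA(m). The uncentred pooled IP ratio, over 2 R101H and 3 R62W libraries, had a median of -0.60 over the 35 families, and the ratio of input counts had a median of 0.723 against 0.677 over all elements. The part of that input difference was not tested. Families of R62W only had low or scattered values. Their median mean enrichment was 0.99, against 2.54 for the shared families in R62W, and 5 of 16 passed in all 3 replicates against 34 of 35. tRNA-Glu-GAG_ ran from -1.02 to 1.89 over the 3 replicates, while tRNA-Ala-GCY_ had 1.18, 1.45 and 2.11 from 15889 IP and 2868 input reads.

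Simple repeats went the other way. Of 210 simple repeats 107 were in both tables, 70 in R101H only and 33 in R62W only. Among the shared, 93 of 107 had a higher mean in R101H, the median difference was 0.28, and 38 had R101H wholly above R62W, beside 43 of all 165 elements (26.1%). After centring, 72 of 107 were higher in R101H, the median was 0.11, and R101H lay wholly above in 17 (15.9%) and R62W in 5 (4.67%), beside 11.5% and 5.45% of all elements. Repeats whose unit holds only C and T, that is pyrimidine tracts in RNA, had 31 shared elements, 30 of them higher in R101H, and a median difference of 0.37. After centring, 26 of these 31 were higher, the median was 0.21 and R101H lay wholly above in 8, where 19 of all elements did.

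(CTCTTT)n had 1.97 and 2.57 in R101H (173 IP and 44 input reads) against 0.72, 1.28 and 1.71 in R62W (127 and 68), a difference of 1.03 ± 0.37 (SE). (CCT)n, with far more reads (4214 and 4211 IP), had 1.38 and 1.58 against 0.28, 0.98 and 1.01. (CTC)n had 1.59 and 1.79 against 0.94, 1.05 and 1.25. In each of the 3 both R101H replicates lay above all R62W replicates, and none passed limma after adjustment (adjusted p = 0.743 for (CTCTTT)n and (CTC)n). Units of other composition did the same, among them (TTGTTT)n (2.38 and 2.83 against 1.82, 1.85 and 1.93), (AAG)n (2.02 and 2.60 against 1.48, 1.57 and 1.92) and (CAGCTC)n (1.35 and 1.65 against 0.27, 1.00 and 1.32). After centring, (TTGTTT)n kept R101H wholly above, while (AAG)n and (CAGCTC)n overlapped.

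Retrotransposon families were split between the tables. LINE elements, which copy themselves through an RNA intermediate, had 5 families in both, 2 in R101H only and 8 in R62W only. The young families L1PA3 (0.42, 0.49 and 0.58; 11697 IP reads) and L1PA4 (0.47, 0.52 and 0.64; 10545 IP reads) were in R62W only. The older L1ME3G (0.83, 0.85 and 1.82) and L1MA4A (0.95, 1.36 and 2.00) were too. L1PA2 was in both tables and overlapped, with 0.51 and 0.55 in R101H against 0.49, 0.57 and 0.61 in R62W. R101H only held SVA_D (0.47 and 0.80; 10435 IP reads), the endogenous retrovirus HERVH-int (0.45 and 0.46), LTR25 (0.55 and 0.78) and L1ME5_AS (0.43 and 0.50). These single-table values are low, and their counterpart has none.

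**Figure D2:**
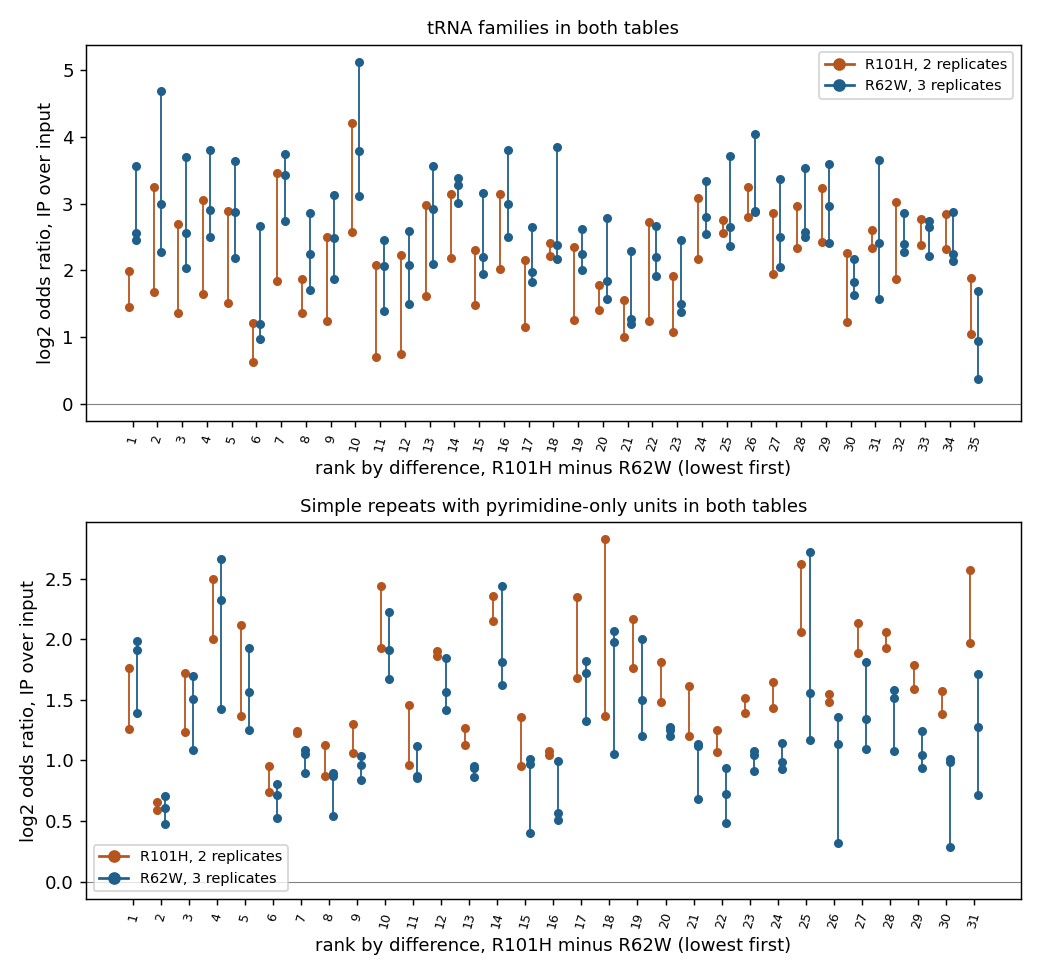
Enrichment (log2 odds ratio of IP over input, vertical axis) of the 35 transfer RNA families (upper panel) and the 31 repeats of C and T units (lower panel) in both tables, each ranked by the difference R101H minus R62W, with 2 R101H and 3 R62W replicates as points. R101H has the lower mean in 32 of the 35 families and the higher mean in 30 of the 31 repeats, and most ranges overlap in the upper panel.

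EEF1A1, which encodes the elongation factor that delivers charged transfer RNA to the ribosome, was lower with R101H across a single block of its transcript. It had 15 windows in R101H and 17 in R62W, with 14 passed in every replicate. The 11 windows annotated as 5′ UTR (chromosome 6, minus strand, 73520027 to 73521032) had pooled IP ratios from -1.26 to -0.96, and in 10 of them all R62W values lay above both R101H values. At 73520392 to 73520483 R101H had 6.31 and 6.61 (17870 IP and 99 input reads) and R62W had 7.28, 7.31 and 7.51 (43432 and 148), a difference of -0.91 ± 0.32 (SE). At 73520118 to 73520208 the values were 7.25 and 7.77 against 8.03, 8.14 and 8.15. The next 3 windows upstream, annotated as non-coding exon (73521033 to 73521287), all overlapped. The first of them had 6.49 and 7.22 against 6.79, 7.01 and 7.88, at ratios for the 3 of -0.44, -0.27 and -0.31. EEF1A1 windows had a limma adjusted p of 0.94 or more. EEF1A1 has many processed pseudogenes, between which reads can be divided.

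RPS19 mRNA itself had windows of either order along its length. Only the IP cells held RPS19 plasmid, so its coding windows can contain plasmid RNA as well. RPS19 had 15 windows in R101H and 22 in R62W on chromosome 19 (plus strand), with 12 passed in every replicate and a median pooled IP ratio of -0.45. R101H lay above in 4 of these 12 and R62W above in 2, beside 19.2% and 1.03% of all windows. After centring the counts were 1 and 5, beside 5.41% and 6.05% of all windows. The coding window at 41861480 to 41861560 stood out, with 3.46 and 4.05 in R101H (342 IP and 27 input reads) against 1.47, 2.06 and 2.59 in R62W (135 and 38). Its difference was 1.72 ± 0.44 (SE), with a limma adjusted p of 0.94.

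Adjoining windows of the preceding RPS19 coding exon went in opposite directions before centring. At 41861162 to 41861212 R101H was above, with 5.55 and 5.63 (35886 IP reads) against 4.82, 4.96 and 5.37 (32354). After centring, the values of that window overlapped. At 41861112 to 41861161 R62W was above, with 5.03, 5.08 and 5.22 (39249 IP reads) against 4.70 and 4.97 (25555). R62W was also above at 41869031 to 41869080, with 5.10, 5.25 and 5.75 against 4.74 and 5.03. The 8 RPS19 windows in R62W only were 2 of 3′ UTR, 5 intronic and 1 of non-coding exon. What the plasmid holds beyond the coding sequence is not given in the labels.

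**Figure D3:**
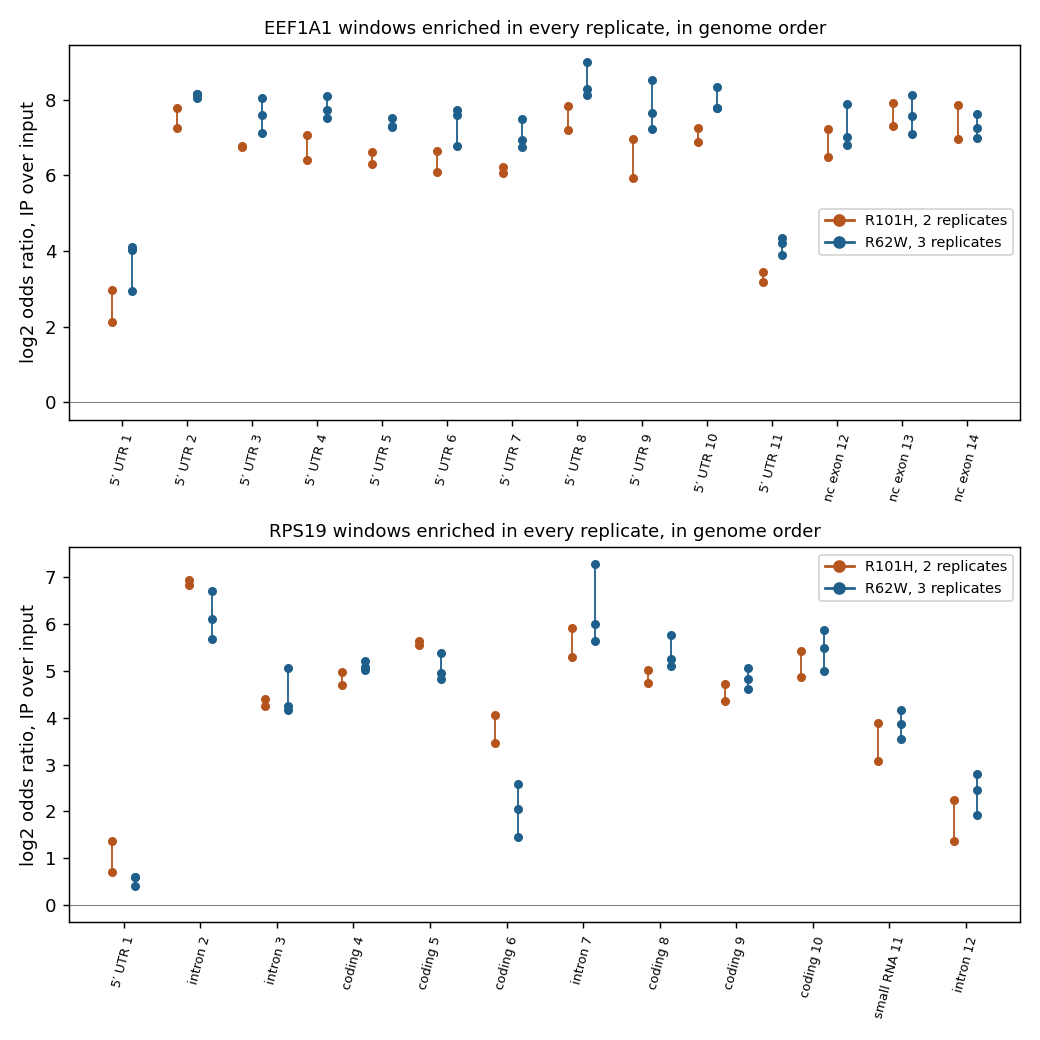
Enrichment (log2 odds ratio of IP over input) along EEF1A1 and RPS19 for windows passed in every replicate, in genome order, with 2 R101H and 3 R62W replicates as points. R62W lies above R101H in 10 EEF1A1 windows, and RPS19 has windows of either direction.

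SNX6, which encodes a sorting nexin of the retromer pathway, had the window with the largest difference. Within 1 intron (chromosome 14, minus strand), the window at 34568910 to 34569008 had 3.08 and 4.14 in R101H (937 IP and 34 input reads) against 7.93, 8.25 and 8.27 in R62W (24980 and 49). The difference was -4.54 ± 0.41 (SE). Its limma adjusted p was 0.584 over all windows and 0.0463 among the 23391 windows with at least 10 pooled input reads in both, where it was the only window called. The neighbour at 34568811 to 34568909 went the other way, with 5.44 and 8.81 in R101H (1843 IP and 8 input reads) against 1.96, 2.56 and 5.44 in R62W (208 and 13), the nearest values of the groups all but touching. On the other side, at 34569009 to 34569107, R62W was above again, with 6.45, 6.91 and 9.33 against 5.16 and 5.57. The window with the most IP reads of this SNX6 intron was thus 34568811 to 34568909 in R101H and the adjoining 34568910 to 34569008 in R62W. Outside this intron SNX6 had 4 windows, 3 of them in R101H only.

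Ribosomal protein mRNAs start with a pyrimidine tract and are translated together in response to growth signals. More of their single-list windows were in R62W only. The 32 small subunit genes had 115 windows in both, 38 in R101H only and 80 in R62W only, and the 62 large subunit genes had 162, 73 and 157. R62W thus held 67.8% (exact 95% interval 58.6 to 76.1) and 68.3% (61.8 to 74.2) of their single-list windows, beside 44.4% of all. R62W had more windows in 22 small subunit genes and R101H in 5, and the large subunit counts were 38 and 10. Their median pooled IP ratios were -0.20 and -0.10 and their median enrichment differences 0.11 and 0.22, beside 0.30 over all windows. After centring, R62W lay above in 12 of 71 small subunit windows (16.9%) and R101H in 3 (4.23%), beside 6.05% and 5.41% of all windows. RPS19 itself, whose coding windows can hold plasmid RNA, gave 5 of the 12 and 1 of the 3. Without it the counts were 7 and 2 of 59, the median pooled IP ratio was -0.16, and the single-list windows were 37 in R101H only and 72 in R62W only (66.1%). Of 99 large subunit windows, R62W lay above in 9 and R101H in 3 after centring.

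RPL3 had 13 windows in R101H and 24 in R62W, RPL35 had 8 and 15, RPL18 had 7 and 12, and RPS15 had 4 and 10. RPS6, the substrate of growth-regulated kinases, had 13 in each. RPS15, RPL18 and RPL35 were among the genes with the lowest median pooled IP ratios, at -0.81, -0.65 and -0.61. Before centring, R62W lay wholly above R101H in 1 of 3 measured windows of RPS15, 1 of 4 of RPL18 and 0 of 4 of RPL35, and the others overlapped. In RPS15 the non-coding exon window at chromosome 19, 1439249, had 1.65 and 1.67 in R101H against 2.16, 2.22 and 3.49 in R62W, from 9 and 12 input reads. Other mRNAs with a terminal pyrimidine tract had 235, 124 and 109 windows, at 46.8% R62W of the single-list windows, which is near the share of all windows.

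Transcript regions divided the lists as well. The 3′ UTR, which holds many regulatory sites of an mRNA, had 15395 windows in both, 9146 in R101H only and 4696 in R62W only. R101H held 66.1% of the single-list 3′ UTR windows (exact 95% interval 65.3 to 66.9) and 42.7% of the intronic ones (41.8 to 43.6), beside 55.6% of all. Coding sequence stood at 57.1% (its small excess reversed with at least 10 input reads), 5′ UTR at 52.7%, non-coding mRNA exons at 44.9% and lncRNA exons at 48.9%. These intervals cover counting error only, and windows of a gene are not independent. Values in windows passed in every replicate were ordered the same way. After centring, R101H lay above in 7.93% of 3′ UTR windows and R62W in 3.36%, and in introns the shares were 2.13% and 11.2%.

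The share of G and C bases differed between the lists. R101H held 63.9% of the single-list windows with a G and C fraction up to 0.35 and 49.4% of those above 0.70. Within each of 4 classes of G and C fraction the 3′ UTR share stayed between 62.9% and 69.4%. The intron share was 31.5% in windows above 0.6, where 854 were in R101H only and 1857 in R62W only. Intron windows next to a 3′ splice site stood apart from the intron body in list membership, with 972 in R101H only and 807 in R62W only (54.6%), against 1679 and 2559 (39.6%). In windows passed in every replicate they were alike, with median pooled IP ratios of -0.136 and -0.144 and median enrichment differences of 0.18 and 0.16.

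**Figure D4:**
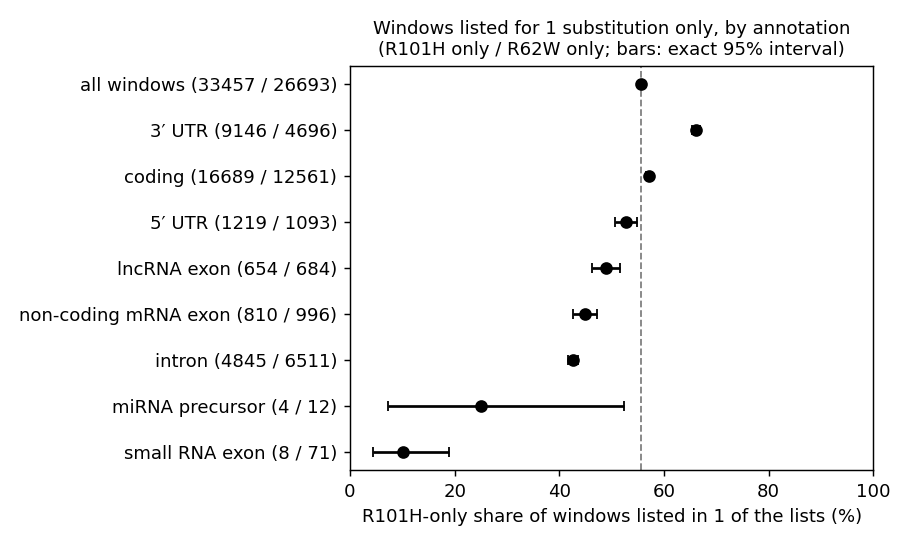
Windows in R101H only and in R62W only by annotated region, as the percentage that R101H holds of the single-list windows, with exact 95% binomial intervals. The 3′ UTR lies at 66.1%, introns at 42.7% and small RNA exons at 10.1%, around 55.6% for all windows.

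The genes with the largest gaps in window number by region were picked after their values were seen and are a description. In the 3′ UTR, TAOK1, a stress-responsive kinase gene, had 39 windows in R101H and 23 in R62W. AGO2, which encodes the effector protein of microRNAs, had 34 and 22, and the activin receptor gene ACVR2B had 32 and 20. Against that order, the splicing factor gene SF3B3 had 16 and 28.

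In introns, PRRC2B had 44 windows in R101H and 86 in R62W, the casein kinase gene CSNK1E had 28 and 67, and U2AF2, which encodes the factor that binds the pyrimidine tract at 3′ splice sites, had 36 and 70. The tumour suppressor kinase gene STK11 had 4 and 30. NBPF20, a member of a family of near-identical copies whose reads may be divided among them, had 129 and 106. Over all regions, the WT list held 93 windows of PRRC2B, 112 of CSNK1E, 31 of U2AF2, 64 of STK11 and 54 of NBPF20. In coding sequence LRP2, a large endocytic receptor gene, had 64 and 34, ADGRV1 had 61 and 32, and AHCTF1, which encodes the nucleoporin ELYS, had 30 and 9. IQGAP1, a scaffold gene, had 17 and 37.

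Of 8680 genes with a window in either list, 83.3% (7233) were in both, 10.4% (900) in R101H only and 6.3% (547) in R62W only. Most single-list genes had 1 window, 586 of the 900 and 427 of the 547, and the WT list held 14 and 54 of them. Among shared genes 3695 had more R101H windows, 2161 more R62W windows and 1377 equal numbers. R101H-only genes with the most windows were PDLIM1, ZCCHC2 and L3MBTL3 with 8 each, and GATA4, RTKN, RELCH and OSBPL3 with 6. GPT2, INTS10, HSF2, KIAA0232 and PDHX had 5. PDLIM1 encodes a cytoskeletal adaptor, GATA4 a transcription factor of heart and endoderm and HSF2 a heat shock factor. Coding windows prevailed, such as 8 of 8 in ZCCHC2 and 7 of 8 in L3MBTL3.

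R62W-only genes had fewer windows. GPR89B, which encodes a Golgi pH regulator and has the near-identical copy GPR89A that can share its reads, had 5, and TRIM26 and TRIM4, of the tripartite motif ubiquitin ligase family, had 4 each. With 3 windows each came TMED9, MPG, C4orf3, ATF3, EPRS1, STAG3L4, ZNRF2 and the transcripts RP11-11N9.4 and CTB-25B13.5. ATF3 is a transcription factor of the integrated stress response, and all 3 of its windows were intronic. EPRS1, which encodes the glutamyl-prolyl-tRNA synthetase, had 2 coding windows and 1 intronic one. The WT list held 3 windows of ATF3, 5 of CTB-25B13.5 and 1 each of TMED9, C4orf3 and ZNRF2. It held 0 of the other R62W-only genes named here.

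Some genes were in both lists with very unequal numbers. DHX29, a helicase that helps the 40S subunit scan structured 5′ UTRs, had 10 windows in R101H, all coding, and 1 in R62W. KANK2 had 10 and 1, SERINC1 had 9 and 1, and DPP8, KREMEN1, MAEA, PDCD6IP, PTPN3 and ZBTB44 had 10 and 2. EPHA4, an ephrin receptor gene, had 13 and 3, of which 10 and 2 were in the 3′ UTR.

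In the other direction, LMNA, the gene of lamins A and C, had 4 windows in R101H and 33 in R62W, of which 1 and 29 were intronic. CTBP2, a transcriptional corepressor gene, had 5 and 27, all intronic. GADD45A, a p53 target of the DNA damage response, had 3 and 12, and MTREX, the helicase of the nuclear RNA exosome, had 2 and 9, all coding. LTA4H, MFSD12 and ZNF764 had 2 and 8, ADRM1 and the snoRNA host SNHG7 had 4 and 13, and HEXIM1, a partner of 7SK RNA, had 5 and 14. The WT list held 108 windows of LMNA, 19 of CTBP2, 10 of GADD45A and 5 of MFSD12. It held 4 each of SNHG7 and HEXIM1, 2 each of ADRM1 and ZNF764, and 0 of MTREX and LTA4H. The 1 LMNA window passed in every replicate had a pooled IP ratio of -1.22 and that of GADD45A -1.06. Other genes with unequal numbers had ratios nearer 0 or against the order of their window numbers. ADRM1 (1 window) had -0.14, SNHG7 (2 windows) -0.43 and HEXIM1 (2 windows) -0.09. Of the genes with more R101H windows, KANK2 had -0.07, SERINC1 -0.25 and MAEA 0.05, from 1 window each. The remaining genes with unequal numbers named here had no window passed in every replicate.

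By pooled IP ratio, genes higher in R101H differed less than those higher in R62W. Over the 2618 genes with at least 3 measured windows and 100 IP reads in each, the SD of the median ratio was 0.17, with 5th and 95th percentiles of -0.29 and 0.19. Among the highest were PNRC2, a cofactor of mRNA decapping, at 0.62, the kinase gene SRC at 0.60, KIF20B at 0.46 and RHOB at 0.42. HIVEP1 (0.38), TBC1D20 (0.37), UBE2G1 (0.37) and TP53BP2 (0.36) were also among them. In PNRC2 the 3′ UTR window at chromosome 1, 23963165, had 2.43 and 2.71 in R101H (52 IP and 13 input reads) against 1.26, 1.42 and 1.85 in R62W (32 and 18). The other 3 PNRC2 windows overlapped. In SRC, R101H lay above in 0 of 3 windows. Besides the U3 genes, SNX6, EEF1A1 and ribosomal protein genes, BSG, which encodes basigin, was lowest at -0.67, with 12 and 34 intronic windows. The WT list held 41 windows of BSG over all regions.

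Lists of genes by function showed how widely these differences spread. Ubiquitin ligases of the HECT and RING families, which tag proteins for degradation, had 1868 windows in both, 514 in R101H only and 345 in R62W only. R62W held 40.2% of the single-list windows (exact 95% interval 36.9 to 43.5), beside 44.4% of all. After centring, R101H lay above in 106 of 1394 windows and R62W in 28, beside 5.41% and 6.05% of all. HUWE1 had 204 windows in R101H and 198 in R62W, with R101H above in 62 of 161 measured windows before centring, and MYCBP2 had 190 and 195, with 44 of 179, beside 19.2% of all windows before centring. Lysine methyltransferases and acetyltransferases, which modify histones, showed the same order, with 210 windows in R101H only and 128 in R62W only and R101H above in 63 of 719 after centring against 22. KMT2A had 152 and 146 windows, NSD1 had 128 and 129, and SETD2 had 76 and 58.

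R101H also held more of the single-list windows of kinesins, dyneins and myosins (386 against 240), of zinc finger ZNF genes (525 against 343) and of collagens, laminins and cadherins (143 against 89). These 3 lists had 38.3%, 39.5% and 38.4% in R62W only, beside 44.4% of all windows. Aminoacyl-tRNA synthetases had 140 and 94, translation initiation factors 208 and 148, and chaperones 194 and 140. The intervals of these last 3 lists and of collagens, laminins and cadherins included 44.4%. Measured windows did not all follow this order. After centring, R62W lay above in 18 of 173 chaperone windows (10.4%) and R101H in 3 (1.73%). In 297 ZNF windows the counts were 23 (7.74%) and 10 (3.37%), beside 6.05% and 5.41% of all windows. Kinesins, dyneins and myosins had R62W above in 12 of 369 and R101H in 26, and the remaining lists of this group had near-equal counts. Mitochondrially encoded transcripts had 5 windows in both, 12 in R101H only and 0 in R62W only, among them 4 R101H windows of MT-ND4 and 3 of MT-ND2.

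Lists tilted toward R62W by list membership included those of RNA processing. SR proteins and hnRNPs, which bind pre-mRNA and steer splicing, had 149 windows in R101H only and 192 in R62W only (56.3%, interval 50.9 to 61.6). Non-coding snoRNA host transcripts had 37 and 54 (59.3%), and proteasome subunits had 54.7% of theirs in R62W only. Small subunit biogenesis factors, with which RPS19 acts, had 233 and 203 (46.6%, interval 41.8 to 51.4), which includes the share of all windows. Large subunit biogenesis factors had 223 and 246 (52.5%). Nuclear-encoded oxidative phosphorylation genes (121 and 116), p53 targets (140 and 119) and integrated stress response genes (25 and 24) had intervals that included 44.4% as well. DEAD and DEAH box helicases (279 and 265) had an interval whose lower bound was 44.4%. Solute carriers (479 and 383) and nucleoporins (208 and 151) had intervals that included 44.4%. In measured windows after centring, SR proteins and hnRNPs had R62W above in 18 of 340 (5.29%) and R101H in 13 (3.82%). Large subunit biogenesis factors had 21 (6.48%) and 14 (4.32%) of 324. Proteasome subunits had 6 (6.06%) and 2 (2.02%) of 99, and snoRNA hosts had 9 (14.1%) and 6 (9.38%) of 64. Shares of all windows were 6.05% and 5.41%.

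Before centring, translation elongation and release factors had R62W above in 11 of 42 measured windows and R101H in 3, beside 1.03% and 19.2% of all windows. After centring the counts were 15 and 0, beside 6.05% and 5.41%. EEF1A1 gave 10 of the 11 and 11 of the 15. Replication-dependent histones had 6 windows in both, 6 in R101H only and 1 in R62W only. Every list count rests on windows that share genes and libraries, and none of these shares was tested.

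**Figure D5:**
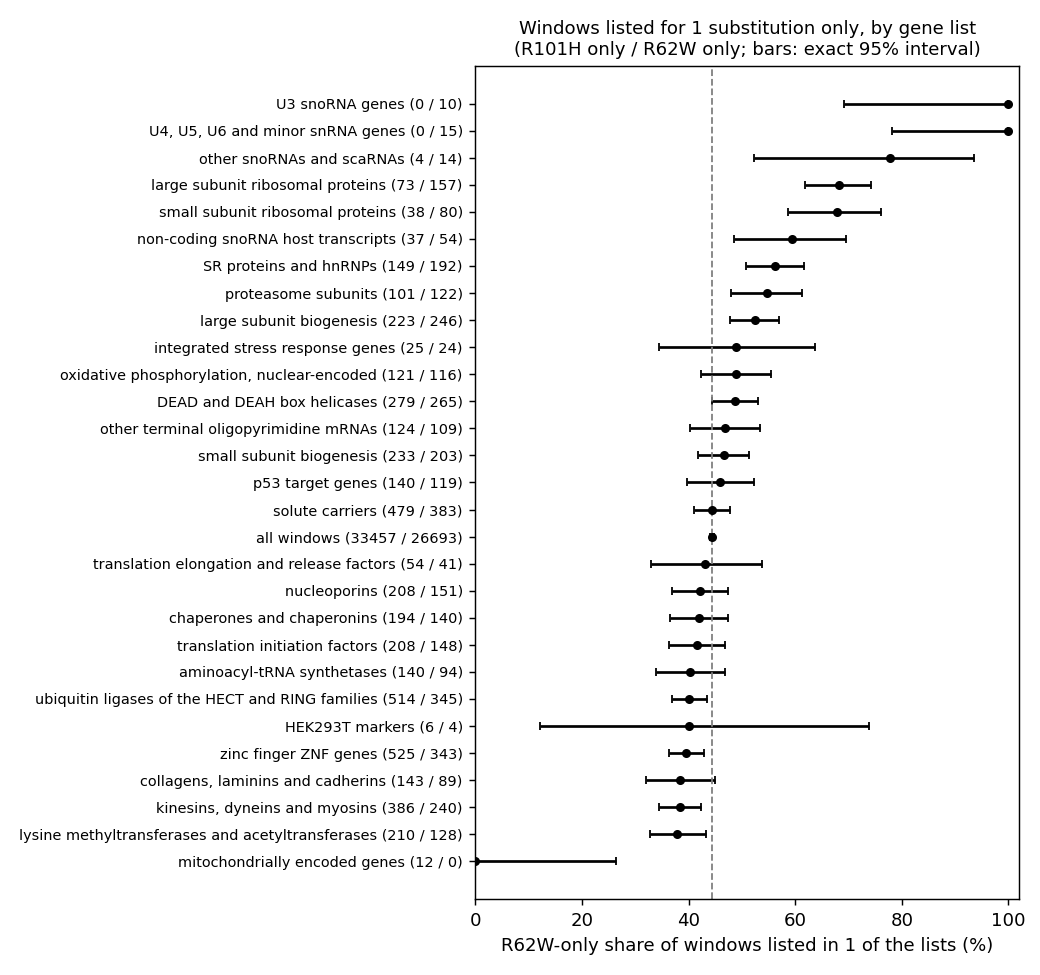
Share of single-list windows held by R62W only (percent, horizontal axis) for each gene list with at least 10 such windows, with exact 95% binomial intervals and the share of all windows as a dashed line. Counts in R101H only and R62W only follow each name. Large and small subunit ribosomal proteins lie at 68.3% and 67.8% and ubiquitin ligases at 40.2%, around 44.4% for all windows.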

How the data were processed

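Each sample is an eCLIP library or a size-matched input. Reads were processed with fastp and STAR on GRCh38, per the submitters' processing notes, which give no versions. They name no window caller. Per the file headers, the authors deposited whole-number IP and input counts pooled over replicates, log2 odds ratios (lowest, mean, highest), p-values and q-values, the fraction of G and C bases, and the number of replicates passed. Deposited values were made from all replicates of a group.

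Windows were matched on chromosome, start, end and strand, and written 1-based. From the values, window sums and log2 odds ratios cover only replicates that passed. In windows with at least 50 input reads the median input ratio was 1.05 where 2 R62W replicates passed and 0.673 where 3 passed. The pooled IP ratio was therefore taken over the 34309 windows passed in every replicate, not over all shared windows as first designed. Its median before centring was -0.16. The replicate values were rebuilt and fitted in limma 3.58.1 under R 4.3.3 (lmFit, then eBayes). The limma fit was tested on simulated data. Other work used Python 3.11.15 and pandas 2.3.3, with exact Clopper-Pearson intervals from scipy 1.17.1.

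Members and the 35 gene lists were chosen with earlier results of these data known. Named genes were the 12 with most windows in a single list, the 10 with the highest and lowest ratio of window numbers (at least 10 windows), the 10 with the highest and lowest median pooled IP ratio (at least 3 windows and 100 IP reads), the repeat elements with the largest differences or the most reads, list members with most windows and RPS19. Alternatives were a highest q of at most 0.05, windows passed in every replicate, at least 10 input reads, a pseudocount of 5, 1 window per gene, other centring and limma with trend. A few genes that the naming rule or the marker list selects are not reported here.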

Additional observations from a re-analysis of the deposited data

How the results depend on the processing

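The limits are the 2 R101H replicates, unlabelled replicate values and unequal listing rules. No paired analysis was possible because replicate values carry no replicate number, and leaving out each replicate could not be run for that reason. Of 81 alternative values of the main results, 45 stayed within 1.5 times the main value (counts) or within its 95% interval (shares and medians).

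With at least 10 input reads, limma called 1 window (SNX6). Shared windows numbered 17077 at a highest q of 0.05, 34309 when passed in every replicate and 36021 with at least 10 input reads. R101H-only windows numbered 26071 at q 0.05 and became 59022 when every replicate had to pass and 16333 with 10 input reads. R62W-only windows became 5539 at q 0.05, 4193 in every replicate and 15917 with 10 input reads. Shared genes numbered 3894 at q 0.05, R101H-only genes 1778 at q 0.05 and 2938 in every replicate, and R62W-only genes 93 in every replicate. The 3′ UTR share of R101H-only minus R62W-only windows, 9.74 percentage points, was 8.98 in every replicate and 7.92 with 10 input reads. The coding difference, 2.82, was 5.20 at q 0.05 and reversed to -1.02 with 10 input reads and to -4.25 with 1 window per gene. The intron difference, -9.91, was -11.3, -4.53 and -4.31 at q 0.05, with 10 input reads and with 1 window per gene. The small RNA exon difference, -0.24, was -0.69 at q 0.05, -0.86 in every replicate and -0.94 with 1 window per gene. The cause was not tested.

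Centring on summed IP counts shifted all windows by 0.08 and gave -0.023 for large subunit ribosomal proteins, 0.19 for lysine methyltransferases and acetyltransferases, 0.18 for ubiquitin ligases and, reversed, 0.00039 for SR proteins and hnRNPs. Over all shared windows, as first designed, U3 genes had -2.01, lysine methyltransferases and acetyltransferases 0.015, SR proteins and hnRNPs -0.14 and ubiquitin ligases, reversed, -0.00042. After centring, windows without overlap numbered 1856 for R101H above (6572 before) and 2077 for R62W above (355 before), the transfer RNA median was -0.65 and that of C and T repeats 0.21.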
